A study of Rattus norvegicus with 6 samples.

Results

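At 14 d after stroke, brain tissue from around the infarct of aged rats was set against the same tissue of young rats, gene by gene. Each age was 1 array of 1 RNA pool, so 2 of the 6 arrays of the series carry the comparison, and the differences have no replicate check and no test. All rats were male Sprague-Dawley rats. The young pool held RNA of 19 rats aged 3 to 4 months and the aged pool RNA of 23 rats aged 19 to 20 months, both 14 d after an infarct for which a tungsten hook had transiently lifted the middle cerebral artery. Pairs of pools of the same ages and sizes taken at 3 d, and pools of 15 naive rats aged 3 to 5 or 18 to 20 months, serve here only for comparison. The labels describe the naive tissue as healthy brain without naming its region. Pooling hides the spread between animals, and everything given below is the difference between these pools.

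Values are on a log2 scale, so a difference of 1 is 2-fold and one of 0.58 is 1.5-fold. Differences are aged minus young throughout, and a positive value means a higher level in the aged pool. A gene was taken from its probe set with 1 gene symbol and the highest mean over the arrays, which gave 14497 genes. Of these, 10947 passed a filter on low values, which asked for the 40th percentile of its array on at least 1 of the 6 arrays. The other 3550 are left out below unless named.

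An infarct is followed by days of microglial activation and by entry of monocytes, which clear dead tissue, and later of lymphocytes. In the border around it, phagocytes turn to lipid-rich debris, astrocytes form a scar, and surviving neurons rebuild connections. Interferons, complement and the receptors that start or restrain leukocyte activation are all at work in this phase, and in rodents many of their genes are already higher in the brain with age.

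The largest differences ran upward in the aged pool. At least 2-fold, 114 genes were higher in the aged pool (1.04% of the 10947) and 5 were lower (0.0457%). The 5 lower genes were Lrrc10b, Metrn, Scn7a, Nppc and the olfactory receptor gene Or1f20d. At 1.5-fold the counts were 631 higher (5.76%) and 199 lower (1.82%). Over all genes the median difference was 0.02, the SD 0.34, and the central 95% of genes lay between -0.55 and 0.80. Above 0 were 52.1% of them, and this share and those at 1.5-fold are the background for the list counts below. The same difference had an SD over genes of 0.17 between the naive pools and of 0.22 at 3 d. At 1.5-fold 67 genes were higher (0.612%) and 13 lower (0.119%) in the aged naive pool, and 50 were higher (0.457%) and 120 lower (1.1%) in the aged pool at 3 d. In either direction 119 genes were at least 2-fold apart at 14 d, against 14 at 3 d and 18 in naive rats. The genes just inside the 2-fold line were C1qa (1.002), Slc10a6 (1.005) and Trmt13 (1.007), and Cotl1 (0.9995), Trpm2 (0.9990) and Hpse (0.998) stood just outside it.

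**Figure D1:**
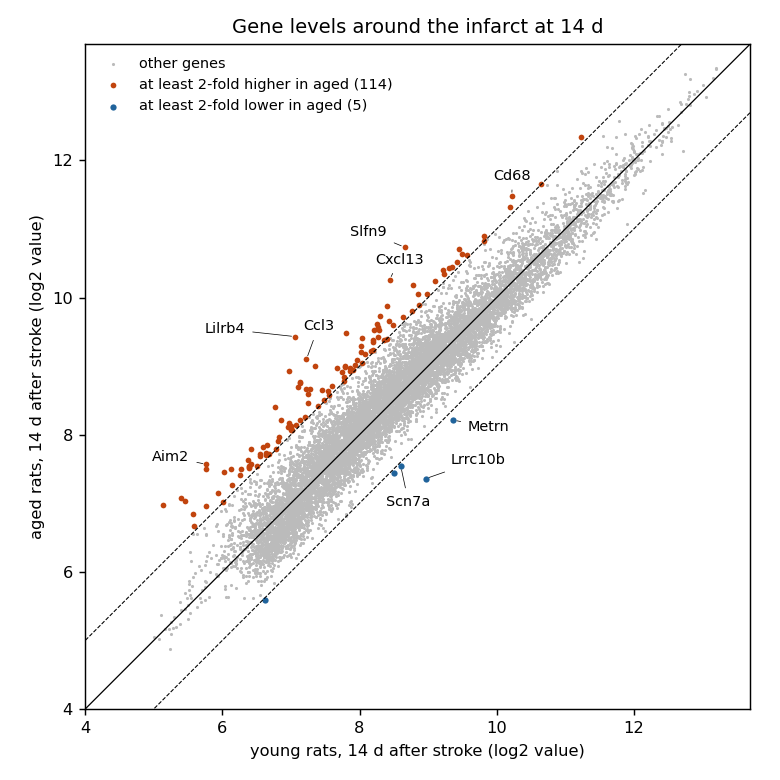
Log2 value of each of 10947 genes in the aged pool (vertical axis) against the young pool (horizontal axis) at 14 d after stroke, 1 array each. The solid line marks equal values and the dashed lines 2-fold. The 114 genes higher in the aged pool (orange) lie over nearly the whole range of levels, and the 5 lower ones (blue) include Lrrc10b, Metrn and Scn7a.

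Genes and probe sets with little cause to differ give a measure of scatter within these arrays. They do not show the spread between pools, so they do not replace replicates. Olfactory and vomeronasal receptor genes, which brain is not known to use widely, numbered 1238 before any filter, mostly at low values. At 14 d their median was -0.13, 90% of them lay between -0.52 and 0.27, and 6 were at least 2-fold higher in the aged pool and 1 lower. At 1.5-fold 11 of the 1238 were higher and 31 lower. Differences of both sizes thus also occurred among genes of this kind at 14 d, and at 1.5-fold more often downward. In the naive pair and at 3 d 0 of the 1238 were 2-fold apart. At 1.5-fold 5 were higher and 9 lower in the naive pair, and 34 were higher and 5 lower at 3 d. The medians were -0.03 in the naive pair and 0.13 at 3 d. The 14 d pair thus had more 2-fold differences among these genes too. For 399 genes with several probe sets, the 14 d age differences of a gene's probe sets spanned a median range of 0.22, and a range of up to 0.71 in 90% of genes. Of 17 such genes at least 1.5-fold higher, 11 had all their probe sets above 0, and of 6 lower genes 4 had all below 0. In the young pool 25 of the 114 higher genes were below the 40th percentile of the array, where a level may stand near background and a fold is the less certain. Among them Aim2, Clec4a, Il1a, C6 and Nkg7 were below it on every array but that of the aged pool at 14 d. They passed the filter only through the pool where they were high, so they could be counted only as higher.

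Receptors, chemokines and cytokines of leukocytes made up most of the 15 genes with the largest positive difference. These were Lilrb4, Slfn9, Slfn4, Ccl3, Cxcl13, Aim2, Clec4a, Plac8, Il18, Klra2, Ccl6, Clec12a, Cd300lf, Zfp36 and C8g, from 2.37 down to 1.44. Lilrb4 encodes an inhibitory receptor of myeloid cells. Its values were 5.80 in young and 5.29 in aged naive rats, 8.84 and 9.17 at 3 d, and 7.06 and 9.43 at 14 d. The ages were thus close at 3 d, and at 14 d the young pool was lower than at 3 d while the aged pool was not. The difference of 2.37 is 5.17-fold. Slfn9, a member of the Schlafen family of immune regulators, measured 5.71 and 6.08 in naive rats, 8.43 and 8.99 at 3 d, and 8.66 and 10.74 at 14 d in young and aged pools. Its young value was about the same at both times after stroke, and the aged value at 14 d was the highest of the 6, for a difference of 2.08. Slfn4, a myeloid member of the same family, stood at 6.98 in young and 8.93 in aged rats at 14 d, against 4.77 and 4.84 in naive rats.

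Some signals that recruit and activate leukocytes were among the genes farthest apart, while the chemokine lists were mixed. Of 13 CC chemokine and receptor genes 3 were at least 1.5-fold higher (23.1%, against 5.76% of all genes), and 5 were below 0. Their median was 0.31. Of 12 CXC chemokine and receptor genes 2 were higher (16.7%) and 6 were below 0, with a median of -0.01. On both lists 0 were at least 1.5-fold lower. Ccl3, a chemokine that attracts monocytes and lymphocytes, was 6.29 and 6.37 in naive young and aged rats, 7.04 and 7.26 at 3 d, and 7.23 and 9.10 at 14 d. Only the aged pool at 14 d stood apart from the other 5 arrays, by a gap of over 1.5 from the next. Cxcl13, which attracts B cells and some T cells through Cxcr5, was 6.25 and 6.23 in naive rats, 7.49 and 7.70 at 3 d, and 8.44 and 10.26 at 14 d. Both pools were higher at 14 d than at 3 d, and the aged pool by more. Ccl6, a chemokine of rodents, ran the other way at 3 d, at 7.998 in young and 7.20 in aged rats, and at 14 d was 7.13 and 8.76. Zfp36, which binds and destabilises cytokine mRNAs, was 8.40 in young and 9.88 in aged rats at 14 d, a difference of 1.48, and was already 0.79 higher in the aged pool at 3 d.

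The inflammasome, which matures cytokines of the interleukin-1 family, was represented by its sensor, its caspases and its substrate. Aim2, a sensor of DNA in the cytosol, was 5.31 and 4.96 in naive young and aged rats, 5.61 and 5.93 at 3 d, and 5.77 and 7.57 at 14 d. Aim2 was below the 40th percentile on every array but that of the aged pool at 14 d. It passed the filter only through that pool, so its other values, near background, show no course. Il18, a cytokine that caspase-1 activates, measured 5.89 and 6.02 in naive rats, 7.82 and 8.37 at 3 d, and 7.35 and 9.01 at 14 d. Casp1 was 8.06 and 9.04 and Casp4 7.78 and 8.996 at 14 d. Il1a, another cytokine of the family, was 5.57 and 6.84, whereas Il1b was 6.42 and 6.60, a difference of 0.18 that is smaller than the median range of that difference between probe sets of a gene. Tgfb1, a cytokine that restrains inflammation and drives scar formation, was 9.46 and 10.71. Of 14 cytokine and inflammasome genes 6 were at least 1.5-fold higher (42.9%, against 5.76% of all genes) and 0 lower. Their median was 0.43, or 0.98 with a filter at the 60th percentile. The 6 include Aim2 and Il1a, and Il1a too passed the filter only through the aged pool at 14 d.

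**Figure D2:**
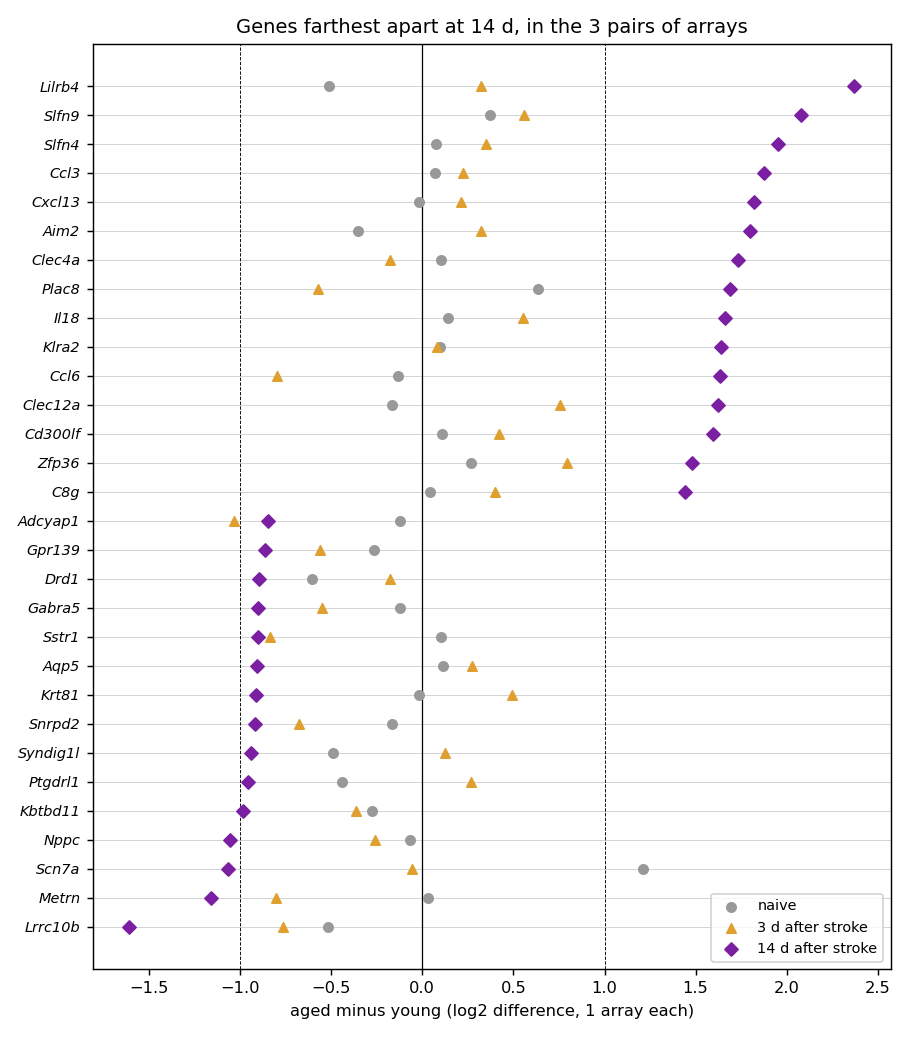
Aged minus young log2 difference (horizontal axis) for the 15 genes with the largest and the 15 with the smallest value at 14 d (rows), in the naive pair (circles), the 3 d pair (triangles) and the 14 d pair (diamonds), 1 array a side. The dashed lines mark 2-fold. The genes were picked on the diamonds, which run from 2.37 for Lilrb4 to -1.61 for Lrrc10b. The circles and triangles mostly lie within 2-fold of 0, with Scn7a (1.21 in naive rats) and Adcyap1 (-1.03 at 3 d) outside.

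Inhibitory receptors of myeloid cells and Schlafen genes formed the list with the highest median. Of its 11 measured members, 10 were at least 1.5-fold higher in the aged pool and 9 at least 2-fold, with a median of 1.60. The list was written with earlier results of these data known and holds 6 of the 15 highest genes, so its direction is not independent evidence. Besides Lilrb4, Slfn9 and Slfn4 these were the lectin-like receptors Clec4a (1.73), Clec12a (1.62), Clec4a3 (1.39) and Clec4a1 (1.29), and Cd300lf (1.60), Cd200r1 (1.16) and Slfn2 (0.82). Sirpa, which binds the signal Cd47 that protects cells from phagocytosis, was lowest at 0.43. Side by side, the members' median difference from the naive pool of the same age was 1.26 in young and 2.60 in aged rats at 14 d. Between the naive pools the list's median was 0.08 and at 3 d 0.32. Clec4a passed the filter on low values only through the aged pool at 14 d. Clec4a and Slfn genes have close relatives in the rat genome that may share probes, so which member of a family was measured is uncertain.

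The machinery that carries signals from immune receptors stood in the same direction. Of 44 genes of leukocyte receptor signalling, a list written after the values had been seen, 25 were at least 1.5-fold higher, 11 of them at least 2-fold, 0 were lower, and the median was 0.70. Rac2, a small GTPase of blood cells, was 8.78 in young and 10.18 in aged rats at 14 d, after 9.57 and 9.80 at 3 d and 7.16 and 7.11 in naive rats. The young value at 14 d was below that at 3 d, and the aged value above it. Btk, a kinase of B cells and myeloid cells, was 6.37 and 7.63, and the adaptors Dapp1, Fyb1, Blnk and Lcp2 were higher by 1.38, 1.36, 1.19 and 1.18. Syk, the kinase upstream of several of them, was higher by 0.67 and Ptprc, the pan-leukocyte marker CD45, by 0.72. Spi1, which encodes PU.1, the transcription factor of the myeloid lineage, was 8.82 and 9.50, and Prkcb, a kinase that neurons also express, was the only one of the 44 below 0, at -0.21. The mean log2 level of the 44 genes was 7.11 and 7.35 in naive rats, 9.02 and 9.01 at 3 d, and 8.73 and 9.46 at 14 d. Since the list was chosen on the 14 d values, its direction there is not independent evidence.

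Promoters were searched for 2 short motifs, chosen because myeloid and interferon-induced genes were among those described here: the site of PU.1, known as a regulator of myeloid genes, and the response element through which interferon induces genes. Each window covers 250 bases before to 50 after the start of transcription, from RefSeq on build GRCr8, printed 5′ to 3′ on the strand of the gene, and capitals mark a match on either strand. The letters searched were GAGGAAGT for PU.1 and, for the interferon response element, GAAA followed after any 2 bases by GAAA. Lilrb4 (chr1:78853203-78853502, minus strand) is shown as the gene farthest apart. Aim2 (chr13:88398372-88398671, plus) and Cd300lf (chr10:100874973-100875272, minus) are the only 2 of the 13 highest genes with a window that held the PU.1 letters. Fcgr3a (chr13:85782386-85782685, plus), an activating receptor for antibody, held both, the PU.1 letters on its opposite strand. Irgm (chr10:33742529-33742828, minus) and Bst2 (chr16:18254918-18255217, minus) are from the upper and the lower end of the range of age differences among interferon effectors with a window.
Lilrb4: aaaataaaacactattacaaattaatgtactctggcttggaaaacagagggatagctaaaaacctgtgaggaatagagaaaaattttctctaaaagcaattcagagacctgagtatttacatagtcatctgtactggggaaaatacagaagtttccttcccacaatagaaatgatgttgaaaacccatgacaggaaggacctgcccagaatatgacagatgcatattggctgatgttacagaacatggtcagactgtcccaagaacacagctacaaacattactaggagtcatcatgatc
Aim2: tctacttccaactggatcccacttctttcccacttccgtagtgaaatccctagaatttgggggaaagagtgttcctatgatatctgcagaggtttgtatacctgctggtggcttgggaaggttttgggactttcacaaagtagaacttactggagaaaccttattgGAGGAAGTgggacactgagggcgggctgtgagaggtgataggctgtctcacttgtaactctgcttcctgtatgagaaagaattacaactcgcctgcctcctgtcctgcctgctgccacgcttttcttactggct
Cd300lf: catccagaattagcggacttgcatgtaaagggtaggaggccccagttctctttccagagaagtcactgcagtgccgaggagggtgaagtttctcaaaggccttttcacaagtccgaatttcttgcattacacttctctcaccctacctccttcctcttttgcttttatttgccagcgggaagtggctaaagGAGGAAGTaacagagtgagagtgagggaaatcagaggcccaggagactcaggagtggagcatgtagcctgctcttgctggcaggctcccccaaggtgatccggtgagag
Fcgr3a: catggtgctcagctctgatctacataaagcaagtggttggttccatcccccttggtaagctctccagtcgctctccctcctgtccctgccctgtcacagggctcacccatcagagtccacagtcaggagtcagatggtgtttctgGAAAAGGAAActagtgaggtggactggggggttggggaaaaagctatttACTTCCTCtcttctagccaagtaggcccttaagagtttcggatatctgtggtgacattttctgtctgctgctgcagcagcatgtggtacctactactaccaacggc
Irgm: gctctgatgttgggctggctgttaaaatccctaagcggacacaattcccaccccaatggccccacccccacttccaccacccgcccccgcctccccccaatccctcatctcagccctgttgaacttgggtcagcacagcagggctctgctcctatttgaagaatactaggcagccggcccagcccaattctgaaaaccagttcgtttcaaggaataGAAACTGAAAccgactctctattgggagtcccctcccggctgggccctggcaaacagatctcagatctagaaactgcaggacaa
Bst2: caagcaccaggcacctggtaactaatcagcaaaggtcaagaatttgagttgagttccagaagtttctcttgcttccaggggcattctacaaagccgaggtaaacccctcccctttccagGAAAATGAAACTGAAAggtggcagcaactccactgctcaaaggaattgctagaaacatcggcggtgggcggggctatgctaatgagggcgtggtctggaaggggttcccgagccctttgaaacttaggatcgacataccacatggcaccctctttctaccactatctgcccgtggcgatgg
The letters of the interferon response element occurred in 18 of 23 interferon effector genes with a window (78.3%), in 1 of the 94 genes with a window among the 114 at least 2-fold higher (1.06%), and in 2.92% of all genes past the filter. Among the 13 highest genes with a window there were 0. Within the interferon effectors, the 18 genes with the letters had a median age difference of 0.47 and the 5 without them 0.52. The highest values were 0.93 and 0.84. Ifitm1, Zbp1 and Ifit1, the 3 effectors at least 2-fold higher, had no window and are outside all of these counts. The shares therefore do not describe the effectors with the largest differences. The PU.1 letters occurred in 4 of the 94 (4.26%), in 5 of 32 leukocyte signalling genes (15.6%) and in 2.72% of all genes past the filter. Over all 27457 promoters in the table the shares were 3.77% for the response element and 2.44% for the PU.1 letters. A match is a description of the letters and not a measured binding site.

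Interferon effectors were higher in the aged pool, with smaller differences than the genes above. Of 35 genes, 15 were at least 1.5-fold higher, 3 of them at least 2-fold, and 0 were lower, with a median of 0.52. Ifitm1, which blocks entry of viruses at membranes, measured 5.09 and 5.28 in naive young and aged rats, 8.95 and 8.90 at 3 d, and 8.22 and 9.53 at 14 d. Zbp1, a sensor of nucleic acids that can start cell death, was 7.79 and 8.98 at 14 d, and Ifit1, which binds viral RNA, 7.87 and 8.98. Irgm, a GTPase of autophagy and defence, was 8.57 and 9.50. Mx1, a classical interferon-induced GTPase, was 5.68 and 5.70 in naive rats and 9.62 and 10.07 at 14 d, a difference of 0.46. Below 0 stood Rsad2 (-0.04), Isg15 (-0.14), Ifi27 (-0.16), Cmpk2 (-0.23) and Bst2 (-0.26), so the sign was not shared by all members. At 14 d the median of the list stood above the naive pool of the same age by 1.82 in young and 2.25 in aged rats. The age medians of the list were 0.19 in naive rats and 0.11 at 3 d. Among 10 interferon regulatory and STAT factors, Irf3 (1.31), Irf9 (0.78), Stat6 (0.74) and Irf5 (0.64) passed 1.5-fold, and Irf7, the amplifier of the type I response, did not at 0.23.

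Genes of antigen presentation to CD4 T cells followed a different course from the inhibitory receptors. Cd74, the invariant chain of MHC class II, was 8.37 in young and 10.36 in aged naive rats, 11.67 and 11.25 at 3 d, and 11.78 and 12.58 at 14 d. RT1-Da, a class II chain, was 6.40 and 8.01, then 9.66 and 8.84, then 9.31 and 10.43. The aged pool was higher when naive, lower at 3 d and higher again at 14 d, for both genes. Of 9 class II genes 5 were at least 1.5-fold higher at 14 d and 0 lower, and the list's median was 0.46 in naive rats, -0.25 at 3 d and 0.62 at 14 d. RT1-DOb (0.01) and RT1-DOa (-0.08), the chains that modulate peptide loading, were about level. Of 18 class I and peptide-loading genes 4 passed 1.5-fold, with RT1-CE10 highest (0.99) and the light chain B2m at 0.10. RT1 genes are near-identical to each other and their single values are uncertain.

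Complement and phagocyte receptors were also higher. Of 17 complement genes 8 were at least 1.5-fold higher (47.1%, against 5.76% of all genes), with a median of 0.58. All 17 were above 0, against 52.1% of all genes, but C6 passed the filter only through the aged pool at 14 d. They included C6 (1.22), part of the membrane attack complex, properdin (Cfp, 1.18), which stabilises the alternative pathway, and the C1q chains C1qc (1.13), C1qa (1.002) and C1qb (0.70), which tag debris and synapses. C3, the central component, was 7.99 and 9.61 in naive young and aged rats and 11.62 and 12.20 at 14 d. C8g, outside this list, was 7.22 in young and 8.66 in aged rats at 14 d, against 7.18 and 7.23 in naive rats. Of 15 Toll-like and Fc receptor genes 9 were at least 1.5-fold higher (60.0%) and 15 were above 0, with a median of 0.69. Fcer1g, the signalling chain shared by Fc receptors, was 11.24 and 12.35, and the inhibitory Fcgr2b and the activating Fcgr3a were higher by 1.14 and 0.96. Tlr9, Tlr6 and Tlr7 were higher by 0.71, 0.69 and 0.62.

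**Figure D3:**
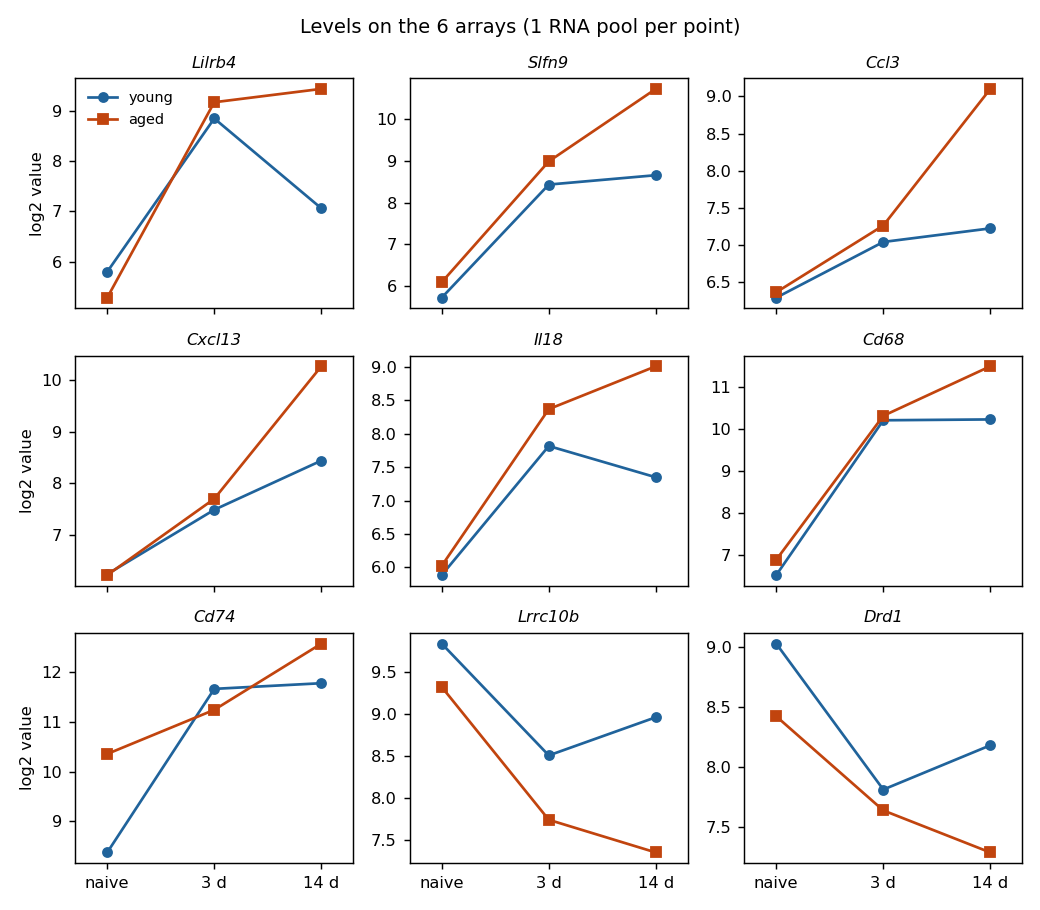
Log2 value (vertical axis, separate for each gene) of 9 genes in naive rats, at 3 d and at 14 d after stroke, in young (blue circles) and aged (orange squares) pools; each point is 1 array. Lines join groups of different animals. Lilrb4 and Il18 were lower at 14 d than at 3 d in the young pools and not in the aged pools, Cd74 crossed, and Lrrc10b and Drd1 were lower in the aged pool in all 3 pairs.

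Markers of the cell types that could carry these genes moved unequally. The homeostatic microglia list had a mean log2 level of 8.27 and 8.54 in naive rats, 9.85 and 10.01 at 3 d, and 9.96 and 10.37 at 14 d, in young and aged pools. Of its 17 genes 3 passed 1.5-fold at 14 d (Mertk 0.84, Trem2 0.70 and P2ry13 0.63), the median was 0.41, and Tmem119 was -0.03. Among 16 monocyte and neutrophil genes 7 were at least 1.5-fold higher, led by Plac8 (1.69), Mmp8 (1.35), Fcgr2b (1.14) and Cd14 (1.07), while 5 were below 0, among them Elane (-0.57) and F13a1 (-0.16). Of 28 genes of lipid-laden phagocytes 24 were above 0 and 4 below, with a median of 0.32. At 1.5-fold 5 passed upward (17.9%, against 5.76% of all genes) and 1 downward (3.57%, against 1.82%). Cd68, a lysosomal protein of phagocytes, was 6.53 and 6.89 in naive rats, 10.20 and 10.31 at 3 d, and 10.22 and 11.48 at 14 d. Plin2, which coats lipid droplets, was higher by 1.23 and Ch25h, which makes an oxysterol, by 1.07. The 4 below 0 were Spp1 (-0.24), Cst7 (-0.27), Fabp5 (-0.34) and Cd9 (-0.68). In whole tissue, a larger number of such cells and a higher level per cell cannot be told apart, and the part of cell numbers in the differences above was not tested.

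Lymphocyte genes were few above the filter. Cd8b, a chain of the CD8 coreceptor, was 7.39 and 6.86 at 3 d and 6.86 and 8.21 at 14 d in young and aged pools, and Cd8a was 8.28 and 7.09, then 6.98 and 7.57. Both were thus lower in the aged pool at 3 d and higher at 14 d. Nkg7, a granule protein of cytotoxic cells, was 6.27 and 7.49 at 14 d and passed the filter only through the aged pool at 14 d. Of 11 T and NK cell genes 4 passed 1.5-fold upward and 0 downward, but 5 were below 0, including Zap70 (-0.42), Cd5 (-0.36) and Lck (-0.19), and Cd3e was below the filter. Of 8 B and plasma cell genes 1 passed (Cd22, 0.61), the median was -0.08, or 0.16 with a filter at the 60th percentile, and Jchain was below the filter. The mean level of the T and NK list was 7.10 and 7.37 at 14 d, and that of the B and plasma cell list 7.56 and 7.62.

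Genes of mRNA splicing were listed after several had been seen among the higher genes, so what follows describes a chosen set, and its direction is not independent evidence. Of 63 splicing factors and their kinases, 17 were at least 1.5-fold higher in the aged pool (27.0%, against 5.76% of all genes) and 0 were lower. Above 0 were 57, and the median was 0.37. Rsrp1 was 10.22 and 9.96 in naive young and aged rats, 9.99 and 10.51 at 3 d, and 9.57 and 10.62 at 14 d. Clk1, a kinase of splicing factors that itself retains introns, was 9.95 and 9.92, then 9.67 and 10.37, then 9.83 and 10.70. For both genes the order of the ages at 14 d was that at 3 d and not that in naive rats. The median of the whole list was -0.06 in naive rats and 0.07 at 3 d, where 1 of the 63 was at least 1.5-fold higher. Luc7l3 (0.99), Ccnl1 (0.98), Srrm1 (0.97) and Pnn (0.89) were next. The abundant hnRNP genes differed little, such as Hnrnpa1 (0.00), Hnrnpk (0.03) and Hnrnpc (0.03). Fnbp4 (8.30 and 9.73) and Nxf1, the main mRNA exporter (9.42 and 10.52), were higher by 1.44 and 1.10 and belong to no list. In contrast Snrpd2, a core protein of the spliceosomal snRNPs, was among the 15 lowest at 9.61 and 8.70. Of 44 genes of snRNP cores and small ribosomal or mitochondrial subunits, also listed after the values were seen, 4 were higher and 2 lower, with a median of 0.05 that was -0.01 after quantile normalization. The median difference over all genes varied with gene span, but not in 1 direction. It was -0.10 in the lowest decile of span, 0.07 in decile 7 and -0.03 in decile 10, the longest genes. The part of this in the splicing genes was not tested.

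**Figure D4:**
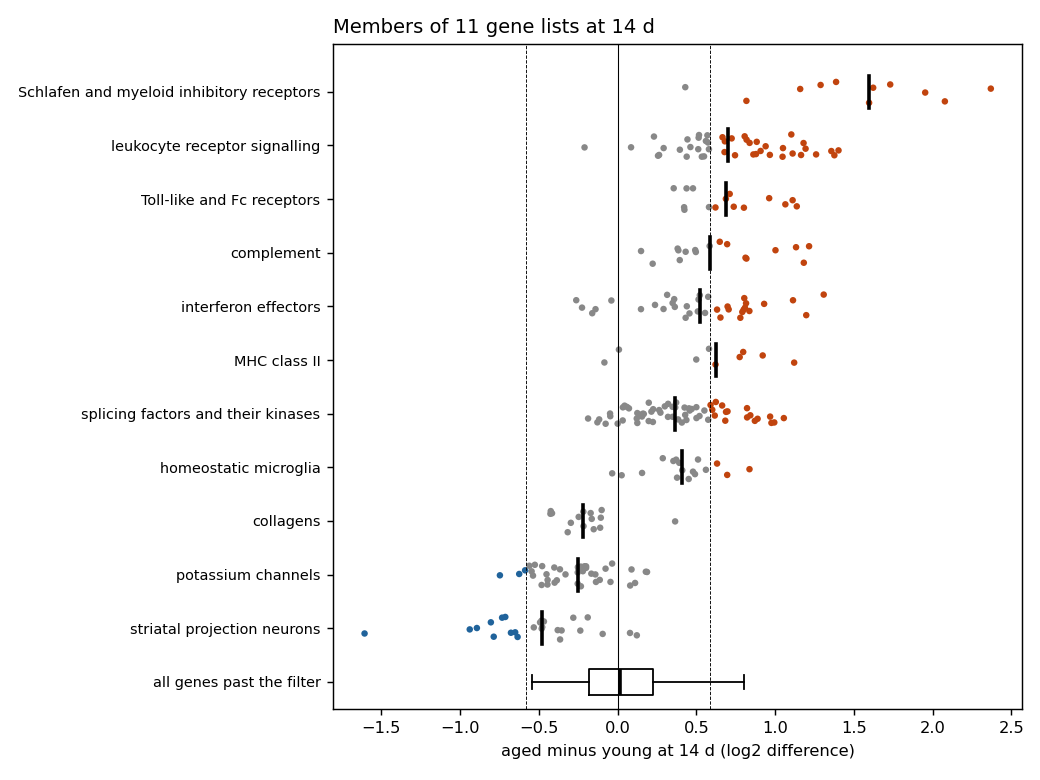
Aged minus young log2 difference at 14 d (horizontal axis) of each measured member of 11 gene lists (points; orange at least 1.5-fold higher, blue at least 1.5-fold lower, grey between; dashed lines mark 1.5-fold) with the median of each list (black bar). The box at the bottom gives the quartiles and the central 95% of all 10947 genes. Medians run from 1.60 for Schlafen and inhibitory receptor genes to -0.48 for striatal projection neurons. Vertical position within a row is random.

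Lower genes differed by less, and receptors and peptides of neurons were among the 15 lowest. These were Lrrc10b (-1.61), Metrn (-1.16), Scn7a (-1.06), Nppc (-1.05), Kbtbd11 (-0.98), Ptgdrl1 (-0.96), Syndig1l (-0.94), Snrpd2 (-0.92), Krt81 (-0.91), Aqp5 (-0.90), Sstr1 (-0.90), Gabra5 (-0.90), Drd1 (-0.89), Gpr139 (-0.86) and Adcyap1 (-0.84). Of the 199 genes at least 1.5-fold lower 21 stood on 10 neuronal lists (10.6%, against 2.15% of all genes past the filter), and 1 on 15 immune lists. Of the 114 at least 2-fold higher, 36 stood on the immune lists (31.6%, against 2.08%) and 1 on the neuronal lists. The lists had been written with earlier results known, so these shares only describe them.

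Genes of striatal projection neurons, the main cells of the caudate-putamen, were lower as a group. Of 25 genes 10 were at least 1.5-fold lower, 0 higher and 23 below 0, with a median of -0.48. Lrrc10b was 9.84 and 9.32 in naive young and aged rats, 8.51 and 7.75 at 3 d, and 8.96 and 7.36 at 14 d. Drd1, the dopamine receptor of the direct pathway, was 9.03 and 8.42, then 7.81 and 7.64, then 8.18 and 7.29, and Drd2, that of the indirect pathway, 10.28 and 9.80, then 8.85 and 8.31, then 9.11 and 8.38. Adora2a, the adenosine receptor beside Drd2, and Pde10a, which breaks down cyclic nucleotides, stood at -0.79 and -0.81 at 14 d. All 25 were also below 0 between the naive pools, with a median of -0.44, and 20 of 25 at 3 d, with a median of -0.15. Of all genes 51.1% were below 0 in the naive pair and 62.4% at 3 d, where their median was -0.06. The mean level of the list was 9.76 and 9.35 in naive rats, 8.69 and 8.51 at 3 d, and 8.91 and 8.39 at 14 d. Whether the aged tissue held less striatum or its neurons less of these RNAs cannot be told apart, and the naive difference was about as large as that at 14 d.

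Of the other 9 neuronal lists 8 had negative medians, and that of the thalamus was 0.04, with 6 of 12 genes above 0 and 1 past 1.5-fold upward. Of 39 potassium channel genes 34 were below 0 with a median of -0.25. Between the naive pools 31 of the 39 were already below 0, with a median of -0.13, against 51.1% of all genes. At 3 d 25 were, with a median of -0.07, against 62.4% of all genes. Of these channels 3 passed downward (7.69%, against 1.82% of all genes), Kcnv1 (-0.75), Kcnf1 (-0.63) and Kcnk2 (-0.59), or 5 after quantile normalization. Of 18 genes of cortical glutamatergic neurons 2 passed, Pcp4 (-0.60) and Lmo4 (-0.59), with a median of -0.31, and after quantile normalization 4 passed. Below 0 were 13 of the 18 at 14 d and 16 between the naive pools, where the median was -0.12. The vesicular glutamate transporter Slc17a7 was 11.76 and 11.30. Of 31 glutamate and GABA receptor genes 28 were below 0 and 1 passed downward, a share of 3.23% near the 1.82% of all genes. That gene was Gabra5, at 10.25 in young and 9.35 in aged rats at 14 d. Of the 31 receptor genes 22 were below 0 between the naive pools, with a median of -0.10 against -0.20 at 14 d. Of 27 sodium and calcium channel genes 22 were below 0 at 14 d (median -0.21) and 26 between the naive pools (median -0.18). Of 22 neuropeptide genes 3 were lower, Nppc, Adcyap1 and Tac1 (-0.68), and 2 higher, Trh (1.04) and Npy (0.67). Adcyap1, which encodes the peptide PACAP, was also lower in the aged pool at 3 d, at -1.03. Scn7a, a sodium channel that senses sodium in glia and circumventricular organs, ran from 5.49 and 6.70 in naive rats to 8.60 and 7.54 at 14 d, so the order of the ages was reversed. Metrn, which encodes the secreted factor meteorin, was 9.19 and 9.23 in naive rats, 9.40 and 8.60 at 3 d, and 9.37 and 8.21 at 14 d. Snap25, a synaptic marker, was higher in the aged pool by 0.35.

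Reactive astrocyte genes included several higher ones, and the lists of endothelial, collagen, matrix glycoprotein and myelin genes each held 0 or 1 gene past 1.5-fold. Of 25 reactive astrocyte genes 7 were higher, among them Cd14, Slc10a6, Lcn2 (0.89) and Cxcl10 (0.84), and 1 was lower, Serpina3n. These were 28.0% and 4.00% of the list, with a median of 0.11 and Gfap at 0.21. Cd14 also stands on the monocyte and the Toll-like receptor lists, Lcn2 on that of heme and iron, and Cxcl10 on that of CXC chemokines. Their values thus do not single out astrocytes. Serpina3n, a secreted protease inhibitor, was 6.16 and 5.94 in naive rats, 10.40 and 8.41 at 3 d, and 7.13 and 6.39 at 14 d, so the larger age difference was that at 3 d. Of 15 collagen genes 14 were below 0 and 0 passed 1.5-fold, with a median of -0.22, and of 23 matrix and scar glycoproteins 0 passed in either direction, with a median of 0.00 that was -0.04 after quantile normalization. Cldn5, the claudin of the blood-brain barrier, was the only one of 28 endothelial genes past 1.5-fold, at 8.71 in young and 7.93 in aged rats, and Pecam1 was higher by 0.14. Of 16 pericyte and smooth muscle genes 1 was higher, Anpep (0.78), and 2 lower, Kcnj8 (-0.70) and Abcc9 (-0.65). These were 6.25% and 12.5% of that list. Of 22 metalloproteinase and TIMP genes 3 were higher (13.6%) and 0 lower, with a median of -0.02. The red cell genes Hbb (7.84 and 7.45) and Hbb-b1 (6.45 and 5.61, below the 40th percentile in both pools) were lower in the aged pool. Their differences were -0.52 and -0.65 between the naive pools and 0.42 and 0.09 at 3 d. The part of blood in the differences at 14 d was not tested. Of 22 myelin genes 1 passed, Hapln2, a link protein of nodes of Ranvier, at 8.42 and 9.66, and it was also higher in the aged pool at 3 d, by 1.18. Lists of senescence and p53 genes (18), clock genes (15) and heat shock genes (27) had 0 members past 1.5-fold in either direction. With 5.76% of all genes higher and 1.82% lower, lists of these sizes would hold few, and so would those of collagens, matrix glycoproteins, endothelium and myelin. Of 35 cell division genes 4 passed upward (Aurkb 0.66, Tpx2 0.65, Pttg1 0.62 and Bub1 0.61), or 11.4% against 5.76% of all genes, with a median of 0.15 against -0.37 at 3 d. Bub1 was below the 40th percentile of the array in both pools at 14 d.

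**Figure D5:**
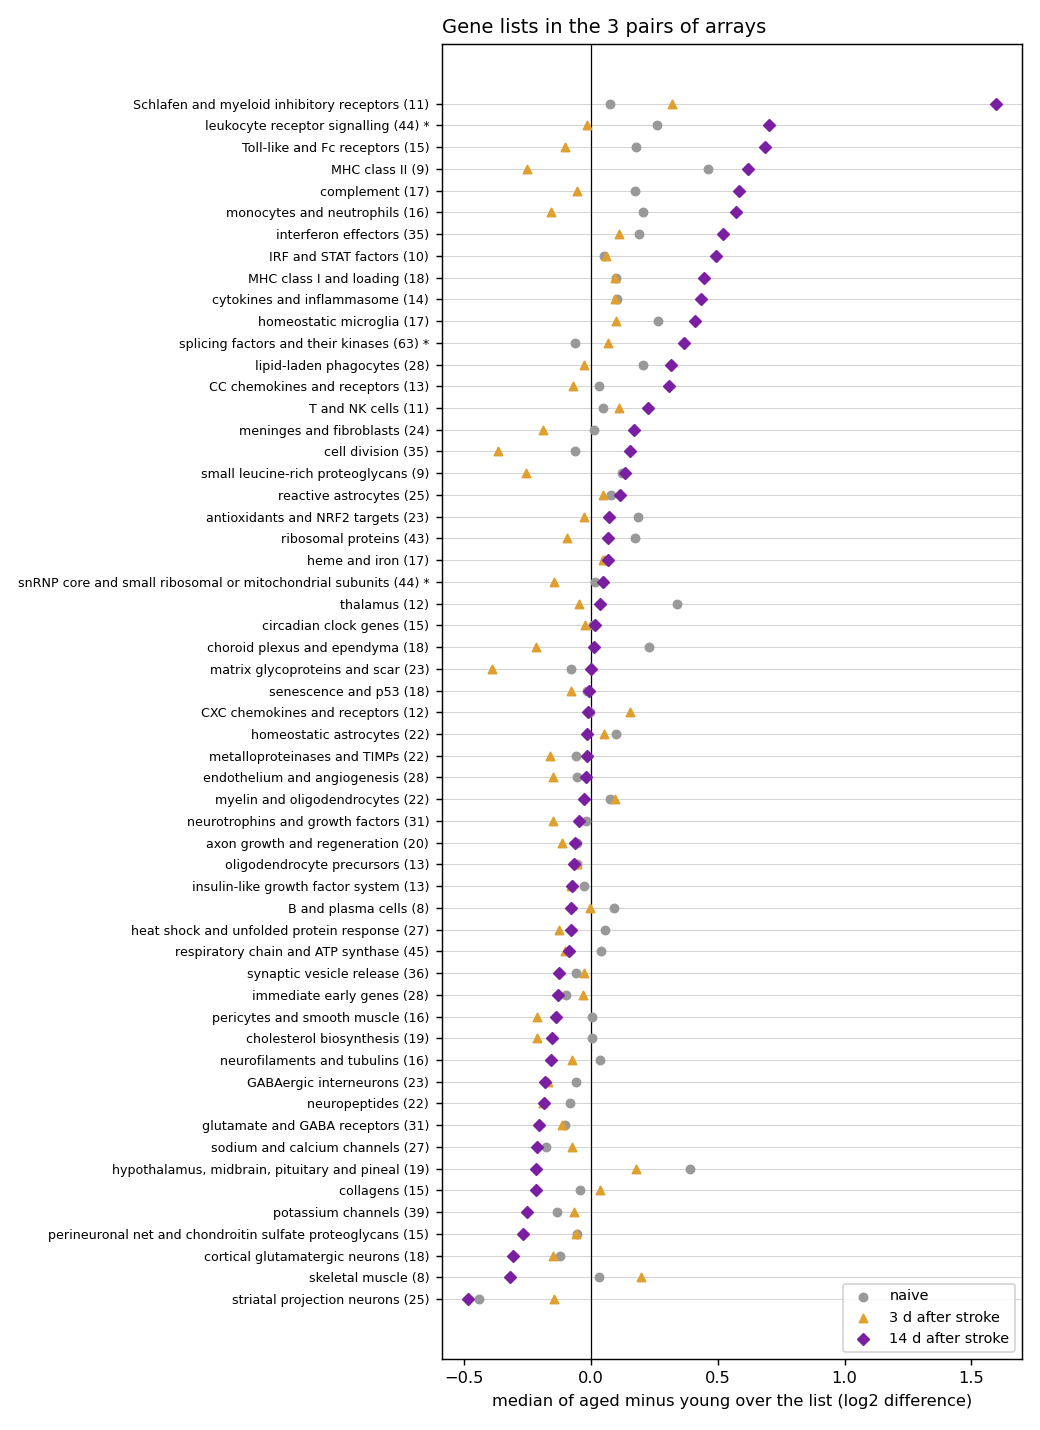
Median of the aged minus young log2 difference (horizontal axis) for each gene list with at least 5 measured members (rows, number of members in brackets; an asterisk marks a list written after the values were seen), in the naive pair (circles), the 3 d pair (triangles) and the 14 d pair (diamonds). Most immune lists lie in the upper part with 14 d medians up to 1.60, but not CXC chemokines (-0.01) or B and plasma cells (-0.08). The list of splicing factors (0.37) lies above some immune lists. Striatal projection neurons lie at the bottom with -0.48 at 14 d and -0.44 in naive rats.

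The naive and 3 d pairs share no array with the 14 d pair, so the same genes could be looked up in them. Of the 114 higher genes, 8 were also at least 1.5-fold higher in the aged naive pool, where 0.612% of all genes were, and 10 at 3 d, where 0.457% were. These shares of the 114 were above those of all genes, while 96 of the 114 passed in neither pair and 0 in both. Differences in the opposite direction occurred too. They were at least 1.5-fold in the naive or 3 d pair for 10 genes at least 2-fold apart at 14 d, given below. All of these but Scn7a were higher at 14 d. Of all genes 0.119% were at least 1.5-fold lower in the aged naive pool and 1.1% at 3 d. Above 0 were 63 of them in naive rats and 86 at 3 d, whereas 48.8% and 37.5% of all genes were above 0 in those pairs. Their median differences were 1.15 at 14 d, 0.22 at 3 d and 0.04 in naive rats. Of the 5 lower genes 0 were at least 1.5-fold lower in naive rats and 2 at 3 d. Over the 10947 genes Pearson's r of the 14 d difference was 0.11 with the naive difference and 0.27 with that at 3 d, and Spearman's rho 0.08 and 0.26, as a description across genes, which are not independent. Set against the naive pool of the same age, 71 of the 114 were at least 1.5-fold higher at 14 d in young rats and 107 in aged rats, and 23 were below the naive value in young rats and 0 in aged rats. These last counts share the 14 d arrays with the choice of the genes and so describe them only.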

How the data were processed

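RNA of 6 groups, pooled within each group, was measured on single-channel Affymetrix rat arrays. Per the labels, TRIzol extracts were cleaned (RNeasy Plus), and the WT Expression Kit amplified 200 ng of each. Each probe set has 1 value per array as deposited by the authors, read here as log2; the base is inferred from the range and is not stated. The affy package in R 2.14.0 was used, per the submitters' processing notes; how values were background-corrected, summarised and normalized is not given in the sources used here, nor the build. Array medians were 7.09, 7.10, 7.13, 7.14, 7.15 and 7.15, so a change in total RNA cannot be seen, and array values compress large folds.

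Of 28826 probe sets 15209 had 1 symbol in the platform annotation, 306 several and 13311 none. Of the 10947 genes past the filter 10940 were in the RefSeq table (GRCr8), used for names, gene span and promoters. Differences were computed in Python 3.11.15 with pandas 2.3.3. With 1 array a side no test was possible, so none was made, and precision is limited by the number of arrays. A batch difference between the arrays cannot be told apart from age. The calculation was tested on simulated data.

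The members and the 54 gene lists were chosen with earlier results of these data known, and 3 further lists after the values were seen. Some genes stand on several lists and are counted in each. List names matched by symbol (1156) or synonym (20), and 284 were unmatched or below the filter. Genes were named as the 15 highest and 15 lowest at or above the median of either 14 d array, passing over names of loci and of olfactory or vomeronasal receptors, up to 4 members of each list with the largest difference, and genes at least 2-fold apart at 14 d and 1.5-fold the other way in another pair. Other genes were chosen after their values were seen. Alternatives were quantile normalization, median centring, a lowess curve on level, other filters and the mean of a gene's probe sets.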

Additional observations from a re-analysis of the deposited data

Results flagged for a closer look

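At 14 d 10 genes were at least 2-fold apart while the naive or the 3 d pair of pools was at least 1.5-fold apart the other way; these differences between pairs were not tested. Ccl6 was higher in the aged pool at 14 d by 1.63 and lower at 3 d (-0.80). The same order held for Ms4a6bl1, a membrane protein gene of the Ms4a family (1.21 at 14 d and -0.61 at 3 d), Glycam1, a mucin-like ligand of L-selectin (1.15 and -1.55), Clec2d2 (1.15 and -0.59), RT1-Da (1.12 and -0.82), Tfec, a transcription factor of macrophages (1.10 and -0.74), and Trh, the thyrotropin-releasing hormone (1.04 and -0.89). Against the naive pair, Cd200r1, an inhibitory receptor of myeloid cells, was 1.16 at 14 d and -0.70 in naive rats, and Hcst, the adaptor DAP10, 1.05 and -0.65. RT1-Da was on the same side in naive rats as at 14 d, at 1.61. Of the 10, Scn7a alone was lower at 14 d, at -1.06, and was higher in the aged naive pool, at 1.21.

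Outside the named genes, 7249 probe sets without 1 symbol passed the filter, and 228 of them were at least 2-fold apart at 14 d, 196 higher and 32 lower in the aged pool. In the naive pair 11 were higher and 7 lower, and at 3 d 51 and 17.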

How the results depend on the processing

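Over quantile normalization, median centring, a lowess curve, 3 other filters and the mean of a gene's probe sets, the genes at least 2-fold higher numbered 89 to 121 and the lower ones 4 to 6. Of the 114 higher genes 104 remained after quantile normalization and 102 after the lowess curve. Genes at least 1.5-fold lower numbered 347 without a filter and 103 with a filter at the 60th percentile, and the higher share of all genes past 1.5-fold was 76.0%, 65.8% and 83.5% in turn; the genes added or left out are of low level. Without a filter the median of the CC chemokine list was -0.0012, against 0.31, as genes below the filter joined it, and that of the T and NK list was -0.05 against 0.23. With the filter at the 60th percentile the medians of the CC chemokine, T and NK, cytokine and B and plasma cell lists were 0.59, 0.66, 0.98 and 0.16. Named genes kept their sign and moved by less than 0.22, the median range of the age difference between probe sets, in 1495 of 1497 values. Most of these values had little room to move. Another filter alters a gene only if its probe set changes, and median centring shifts all genes alike. Quantile normalization and the lowess curve could move any gene, and all 220 values of each moved by less than 0.22. Abcc9 and Rpl29 moved by more with the mean of their probe sets, which alters only genes with several. No paired analysis was possible because each group was 1 array, and no replicate could be left out.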
